A study of Mus musculus with 17 samples.

Results

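The 43 genes described here encode the secreted Wnt ligands, their Frizzled receptors, the secreted antagonists of the pathway and 5 further genes of Wnt reception and response. They were chosen by name alone, as protein-coding genes whose symbol is Wnt, Fzd, Sfrp or Dkk followed by a digit, together with Wif1, Axin2, Lrp5, Lrp6, Lgr4 and Lgr5. No measured value entered that rule, though earlier results of these data were known when the genes were chosen. It gives 19 Wnt ligands, 10 Frizzled receptors, 9 antagonists (5 of the Sfrp and Wif1 kind and 4 of the Dkk kind) and the 5 genes Axin2, Lrp5, Lrp6, Lgr4 and Lgr5, all of them among the 53313 gene identifiers common to every count table.

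RNA was sequenced from primary tubular epithelial cells in culture (PTEC, with the cell type labelled proximal tubular cells) and from halved right kidneys (labelled whole kidney) of wild-type mice, in 17 libraries, with the strain spelled C57BL/6Rj in the labels and C57BL/6JRj in the methods of the study. PTEC were grown out of collagenase-digested kidneys, and 4 non-senescent cultures, taken at day 6 without irradiation, were set against 4 senescent cultures, taken at day 16 after 10 Gray of γ-irradiation, so that irradiation and time in culture cannot be told apart. The kidneys came from 9 untreated male mice, 3 each at 3, 12 and 24 months of age. The comparisons ask which of these genes differed with senescence in culture and which with age in the kidney, and since nothing states that the cultures came from separate mice, p-values in PTEC measure the spread between cultures.

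Wnt proteins are secreted, lipid-modified ligands that bind Frizzled receptors and, with the co-receptors Lrp5 and Lrp6, stabilise β-catenin, which then acts with TCF/LEF factors on target genes such as Axin2. Other Wnt proteins, of which Wnt5a and Wnt11 are the best known, also act through pathways without β-catenin that govern cell polarity and movement. In the developing kidney Wnt9b from the ureteric bud and Wnt4 in the mesenchyme drive the formation of tubules, Wnt11 acts at the bud tips, and Wnt7b shapes the medulla.

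Genes received from 26963442 to 35409144 reads in a PTEC culture and from 37311247 to 66894790 reads in a kidney. Levels are given as CPM, reads relative to the scaled library size, and a count of 0 in a whole group allows a level of up to 0.0260 CPM in non-senescent PTEC, 0.0236 CPM in senescent PTEC and from 0.0153 to 0.0228 CPM in kidneys, by counting error only. The label of the cultures was set against 15 proximal tubule genes. Their summed level lay between 238 and 910 CPM in non-senescent PTEC and between 175 and 356 CPM in senescent PTEC, far under the 51015 to 66648 CPM of the kidneys. The endocytic receptor Lrp2 stood at 203 ± 225 CPM (SD, n = 4) and 227 ± 96.2 CPM, while the phosphate transporter Slc34a1 stood at 9.12 ± 10.8 CPM and at 0.0248 ± 0.0320 CPM. Slc34a1 was thus near 0 in the senescent cultures while Lrp2 was not. Lrp2 made up most of the mean sum of 274 CPM in senescent PTEC. Of the 15 genes, 10 were at or above 1 CPM in non-senescent and 6 in senescent PTEC. The 3-month-old kidneys were counted on another gene set than the older kidneys, so that age and gene set cannot be told apart in comparisons with them. In bulk RNA, fewer cells of a type and less RNA per cell cannot be told apart.

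In senescent PTEC, 8 Wnt ligands, 4 Frizzled receptors, Dkk3, Sfrp2, Sfrp4 and Axin2 were up-regulated, Sfrp1 and Sfrp5 were down-regulated, and the most abundant ligands and receptors, Wnt7b, Wnt7a and Fzd4, were not called. Reads sufficed to test 34 of the 43 genes. Among them 16 were up-regulated, 2 were down-regulated and 16 were not called, where a call in edgeR needs both a log2 fold change beyond 0.5 in size and an adjusted p under 0.05. Among all 15434 genes tested, 20.1% were up-regulated and 19.7% were down-regulated, so that calls were common in this comparison. The median log2 fold change of the 34 genes was 0.76, against -0.002 over all genes tested. Some of the 34 passed the filter on low counts only through the senescent cultures. Among these, Wnt3, Wnt6, Fzd10 and Sfrp2 had 1, 1, 4 and 9 reads in all non-senescent cultures and could only be called up. Sfrp5 passed only through the non-senescent cultures and could only be called down. The counts of calls and this median are therefore no measure of a shift of the whole set. By family, 8 of 14 tested ligands rose and 0 fell, 4 of 9 Frizzled receptors rose and 0 fell, 3 of 6 antagonists rose and 2 fell, and Axin2 alone rose among Axin2, Lrp5, Lrp6, Lgr4 and Lgr5. With the replicate number as a block, Wnt7b and Lgr4 were called down and Fzd8 up as well, which makes 21 genes called, beside 44.6% of all genes. With each culture left out in turn, between 17 and 20 of the genes were called. The plot of PTEC levels shows every culture, and the plot of log2 fold changes shows the estimates with their errors.

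**Figure D1:**
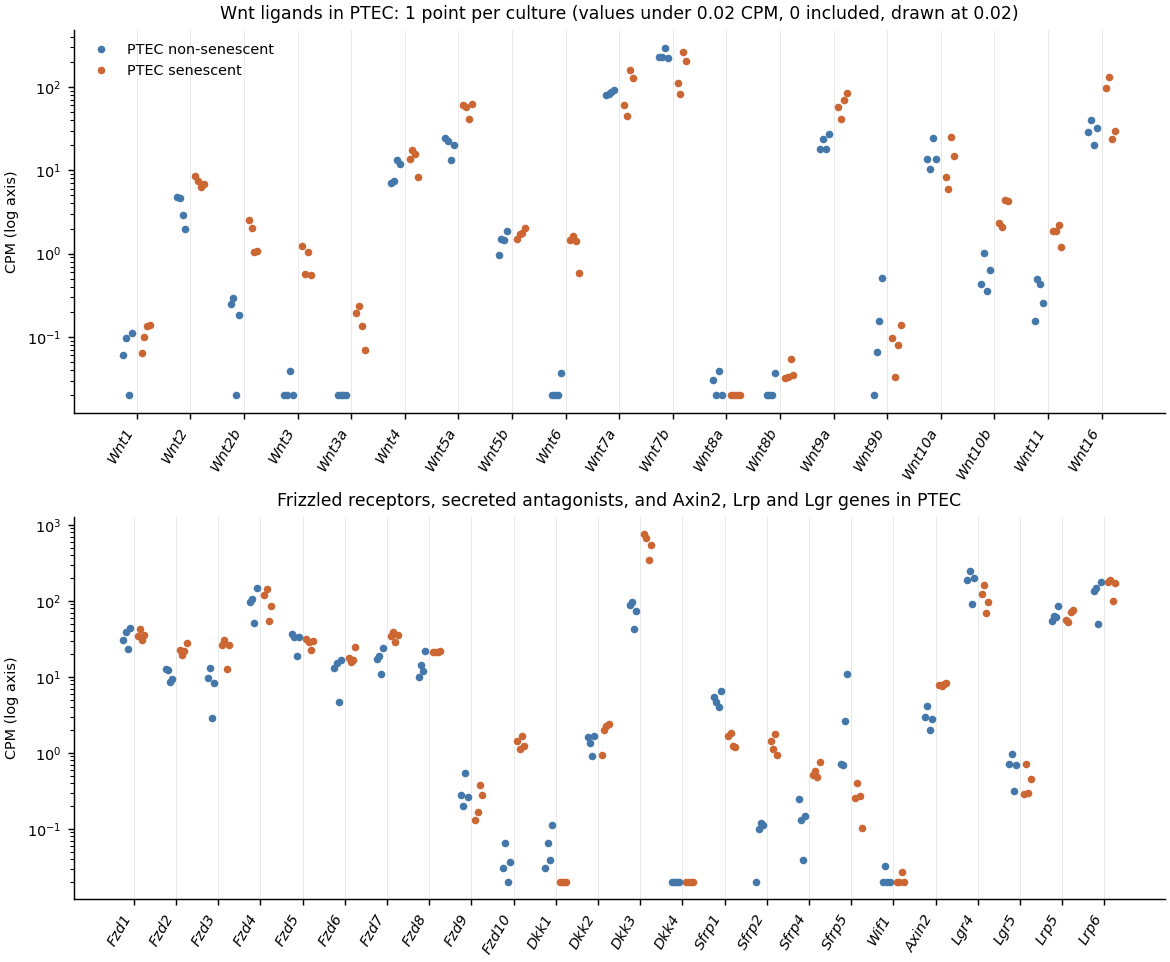
Level of each Wnt gene in PTEC in CPM on a log axis, with 1 point per culture (4 non-senescent, 4 senescent) and values under 0.02 CPM drawn at 0.02. The upper panel holds the ligands and the lower panel the other genes. Wnt7b and Wnt7a have the highest means of the ligands in both groups, though not the highest level in every senescent culture. Dkk3 lies between 340 and 751 CPM in senescent cultures and between 42.2 and 96.0 CPM in non-senescent cultures.

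Among the ligands, Wnt6 and Wnt3 rose from next to no reads in non-senescent PTEC. Wnt6, a ligand made by the ureteric bud in development, stood at 0, 0, 0 and 0.0369 CPM in the 4 non-senescent cultures and at 1.45, 1.61, 1.4 and 0.587 CPM in the 4 senescent cultures. Wnt3, a ligand of the β-catenin branch, stood at 0, 0, 0.0392 and 0 CPM and at 1.22, 0.569, 1.05 and 0.553 CPM. Every senescent culture lay above every non-senescent culture for either gene. There was 1 read of Wnt6 in all non-senescent cultures against 162 in senescent cultures, a ratio of 148 with a 95% interval of 26.1 to 5863 that covers counting error only (edgeR adjusted p = 9.05e-05). For Wnt3 there was 1 read against 110, a ratio of 100 with an interval of 17.6 to 3993 (adjusted p = 0.000164). Wnt3a, a close relative of Wnt3, had no read in non-senescent PTEC and 20 reads in senescent PTEC, at 0.193, 0.234, 0.135 and 0.0691 CPM, which makes it at least 6.07-fold higher against a floor of 3 counts over the group. It did not pass the filter and was not tested.

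The promoters of Wnt6, Wnt3 and Wnt11, which is described next, are shown because Wnt6 and Wnt3 had 1 read in all non-senescent cultures and Wnt11 was also called in kidneys between 24 and 3 months of age, and the letters by which TCF/LEF factors are known to bind were searched in them. Each is the 250 bases before the RefSeq start on GRCm38.p6, on the plus strand, at chr1:74771642-74771891 for Wnt6, chr11:103773925-103774174 for Wnt3 and chr7:98834862-98835111 for Wnt11. The search was for AACAAAG and for the variants that start with AT, with TA or with TT in place of AA, on both strands, and capitals mark a match.
Wnt6: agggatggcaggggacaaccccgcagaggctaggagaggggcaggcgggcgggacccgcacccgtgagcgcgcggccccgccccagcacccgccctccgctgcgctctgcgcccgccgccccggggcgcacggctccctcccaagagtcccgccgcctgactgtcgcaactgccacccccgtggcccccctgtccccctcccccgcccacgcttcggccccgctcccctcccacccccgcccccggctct
Wnt3: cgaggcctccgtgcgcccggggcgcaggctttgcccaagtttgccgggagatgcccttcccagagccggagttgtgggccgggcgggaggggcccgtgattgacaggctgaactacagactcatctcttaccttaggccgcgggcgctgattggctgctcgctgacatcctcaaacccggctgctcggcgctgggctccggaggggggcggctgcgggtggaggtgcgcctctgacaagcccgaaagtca
Wnt11: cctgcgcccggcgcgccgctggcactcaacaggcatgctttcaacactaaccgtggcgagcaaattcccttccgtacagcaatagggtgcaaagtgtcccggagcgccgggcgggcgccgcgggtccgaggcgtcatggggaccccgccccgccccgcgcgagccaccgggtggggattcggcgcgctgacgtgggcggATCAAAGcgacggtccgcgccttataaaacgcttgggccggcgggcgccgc
Only the window of Wnt11 holds a match among the 3, ATCAAAG at position -51 from the start. Windows were at hand for 28 of the 43 genes, and 3 of these (10.7%) hold a match, namely Dkk1, Fzd7 and Wnt11, against 14.8% of all 32851 windows. A match is a description of letters and not a binding site. The 28 windows had a median GC content of 70.0%, against 52.4% over all windows, and a median of 22.5 CpG, against 6.

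Wnt5a and Wnt11 also rose, while Wnt5b was not called. Wnt5a, the best studied ligand of the branch without β-catenin, stood at 24.6, 22.3, 13.4 and 20.2 CPM in non-senescent PTEC and at 61.4, 56.9, 41.7 and 62.0 CPM in senescent PTEC. The groups did not overlap, and the log2 fold change was 1.46 with an SE of 0.21 (adjusted p = 0.000507). Wnt11 stood at 0.154, 0.492, 0.431 and 0.258 CPM and at 1.87, 1.88, 2.19 and 1.21 CPM. Its lowest senescent culture lay above its highest non-senescent culture, with a log2 fold change of 2.42 and an SE of 0.38 (adjusted p = 0.000812). Wnt5b, the nearest relative of Wnt5a, had means of 1.45 and 1.76 CPM and a log2 fold change of 0.28 (adjusted p = 0.411).

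The remaining called ligands were Wnt9a, Wnt10b, Wnt2 and Wnt2b. Wnt9a, known from joint formation, stood at 18, 23.6, 18 and 26.9 CPM in non-senescent PTEC and at 56.8, 41.4, 70.5 and 85.2 CPM in senescent PTEC, with no overlap (log2 fold change 1.55, SE 0.24, adjusted p = 0.000709). Wnt10b, which restrains fat cell formation, stood at 0.430, 1.02, 0.353 and 0.628 CPM and at 2.35, 2.11, 4.38 and 4.25 CPM, again with no overlap (log2 fold change 2.42, SE 0.41, adjusted p = 0.00124). Wnt2 and Wnt2b are related ligands that together specify the lung. Wnt2 stood at 4.80, 4.63, 2.90 and 1.96 CPM and at 8.46, 7.37, 6.32 and 6.91 CPM, with a log2 fold change of 1.02, an SE of 0.29 and an adjusted p of 0.0175, which became 0.0531 without senescent replicate 1. Wnt2b stood at 0.246, 0.295, 0 and 0.185 CPM and at 2.51, 2.04, 1.05 and 1.07 CPM, with a log2 fold change of 3.13, an SE of 0.59 and an adjusted p of 0.00236. In both genes all senescent cultures lay above all non-senescent cultures.

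The most abundant ligands did not change with a call. Wnt7b stood at 227, 226, 296 and 224 CPM in non-senescent PTEC and at 112, 83.3, 264 and 203 CPM in senescent PTEC, and Wnt7a, its close relative, stood at 79.9, 83.0, 87.9 and 91.5 CPM and at 61.3, 45.1, 158 and 129 CPM. Senescent replicates 1 and 2 were low and replicates 3 and 4 high in both genes, so that the spread in senescent PTEC was wide. The log2 fold change of Wnt7b was -0.55 with an SE of 0.32 (adjusted p = 0.191), and with the replicate number as a block it was -0.69 with an adjusted p of 0.0326, which is a call. It also became a call without senescent replicate 3, at -0.87 (adjusted p = 0.0372). That of Wnt7a was 0.20 (adjusted p = 0.667). Wnt16, a ligand of bone and of damaged stroma, showed the opposite split, at 28.8, 40.3, 19.9 and 32.6 CPM in non-senescent cultures and at 96.1, 131, 24.0 and 29.3 CPM in senescent cultures. Senescent replicates 1 and 2 were far above replicates 3 and 4, which lay within the non-senescent range. The log2 fold change of 1.2 (SE 0.51) had an adjusted p of 0.0807, which became 0.0209 without senescent replicate 3 and 0.0433 without senescent replicate 4. Wnt4 stood at 7.04, 7.52, 13.3 and 11.9 CPM and at 13.7, 17.6, 15.9 and 8.32 CPM, with overlapping groups. Wnt4 and Wnt10a were not called, at 0.48 (adjusted p = 0.199) and -0.20 (adjusted p = 0.732) on the log2 scale.

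Per kb of exon, the scale on which genes can be compared, the ligands summed to 104 CPM per kb in non-senescent and 122 CPM per kb in senescent PTEC. Wnt7b made up 47.8% of that sum in non-senescent PTEC, followed by Wnt7a with 26.0% and Wnt16 with 6.71%. In senescent PTEC the order was Wnt7b with 27.6%, Wnt7a with 25.3% and Wnt9a with 15.6%, followed by Wnt16 with a mean of 16.1 CPM per kb. These orders are of means and differed between cultures. In senescent replicate 2, Wnt16, at 131 CPM, ranked above Wnt7b, at 83.3 CPM, also per kb. In non-senescent replicate 3, Wnt10a, at 24.3 CPM, ranked above Wnt16, at 19.9 CPM, also per kb. Wnt7b and Wnt7a had means of 33.8 and 31.0 CPM per kb in senescent PTEC. Wnt7b lay above Wnt7a per kb in each senescent culture, and the difference was not tested. In mouse kidneys, set beside PTEC without a test because the cells were scaled apart, the ligand sum was 16.5, 6.70 and 9.35 CPM per kb at 3, 12 and 24 months. Wnt7a and Wnt16 were near absent there, with at most 0.143 and 0.635 CPM in any kidney. The plot of ligand composition shows these shares.

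**Figure D2:**
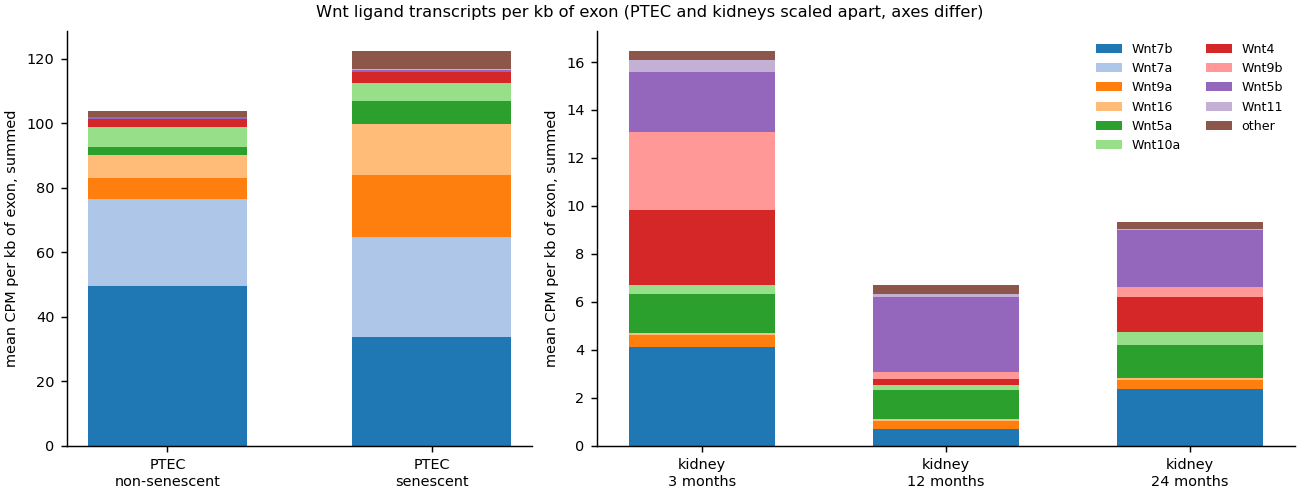
Mean level of each Wnt ligand in CPM per kb of exon, stacked, in non-senescent and senescent PTEC (4 cultures each) and in kidneys at 3, 12 and 24 months (3 mice each), with separate axes for PTEC and kidney. Wnt7b and Wnt7a fill most of the PTEC bars, and the kidney bars reach 16.5, 6.70 and 9.35 CPM per kb.

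Several Wnt genes lie side by side in the genome, and their levels can be set against those of their neighbours. Wnt6 (chromosome 1, 74771892 to 74785322, plus strand) lies 6.19 kb from Wnt10a, Wnt3a lies 16.2 kb from Wnt9a and Wnt9b lies 24.3 kb from Wnt3, both on chromosome 11, and Wnt10b lies 11.7 kb from Wnt1 on chromosome 15. Wnt6 rose while Wnt10a, at 13.6, 10.5, 24.3 and 13.8 CPM in non-senescent and 8.27, 5.93, 25.1 and 14.6 CPM in senescent cultures, was not called. Wnt3 rose, whereas Wnt9b stood at 0 to 0.517 CPM in non-senescent and at 0.0335 to 0.138 CPM in senescent cultures and was too low to be tested. Wnt9a rose, and Wnt3a went from 0 to 20 reads. Wnt10b rose beside Wnt1, which had 8 reads in non-senescent and 14 in senescent cultures. The difference in response between neighbours was not tested. Wnt8a, with 2 and 0 reads, and Wnt8b, with 1 and 5 reads, complete the ligands.

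**Figure D3:**
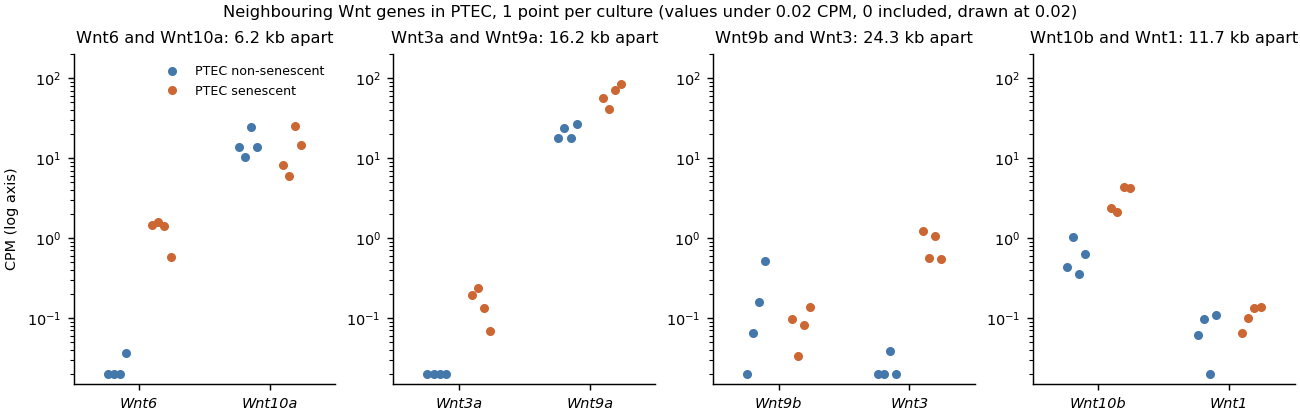
Levels in CPM on a log axis (values under 0.02 drawn at 0.02) of 4 pairs of neighbouring Wnt genes in PTEC, with 1 point per culture in the 4 non-senescent and 4 senescent cultures. Wnt6, Wnt3, Wnt9a and Wnt10b lie higher in every senescent culture, while Wnt10a overlaps between the groups.

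Of the Frizzled receptors, Fzd10, Fzd2, Fzd3 and Fzd7 rose in senescent PTEC. Fzd10 stood at 0.0307, 0.0656, 0 and 0.0369 CPM in non-senescent and at 1.42, 1.14, 1.65 and 1.24 CPM in senescent cultures, from 4 and 175 reads. It went from near silence to a low but even level, with a log2 fold change of 5.15, an SE of 0.45 and an adjusted p of 3.12e-05. Fzd2 and Fzd7 are closely related receptors of broad ligand use. Fzd2 stood at 12.7, 12.3, 8.59 and 9.23 CPM and at 22.5, 19.5, 22.0 and 27.8 CPM (log2 fold change 1.10, SE 0.18, adjusted p = 0.00120). Fzd7 stood at 17.3, 19.0, 11.0 and 24.1 CPM and at 34.6, 38.6, 28.5 and 35.3 CPM (log2 fold change 0.94, SE 0.22, adjusted p = 0.00757). Neither gene overlapped between the groups. Fzd3, a receptor known from axon guidance and planar polarity, stood at 9.56, 13.0, 2.86 and 8.27 CPM and at 26.5, 30.9, 12.7 and 26.4 CPM. Its lowest senescent culture, replicate 3, lay just under the highest non-senescent culture, and replicate 3 was the lowest of both groups (log2 fold change 1.52, SE 0.42, adjusted p = 0.0155).

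The receptors with the highest levels per kb in non-senescent PTEC were not called. Fzd4, which also binds Norrin, stood at 96.8, 105, 51.6 and 148 CPM in non-senescent and at 121, 143, 54.7 and 84.3 CPM in senescent cultures, with a log2 fold change of 0.01 (adjusted p = 0.989). Fzd1 stood at 30.9, 39.2, 22.9 and 43.6 CPM and at 34.4, 42.3, 30.1 and 35.7 CPM, with a log2 fold change of 0.06 (adjusted p = 0.834). Fzd5 stood at 36.4, 33.9, 18.7 and 33.5 CPM and at 31.6, 28.4, 22.5 and 29.4 CPM, with a log2 fold change of -0.13 (adjusted p = 0.645). In all 3, the groups overlapped and replicate 3 was the lowest culture of each group. Their means per kb in non-senescent PTEC were 14.9, 8.14 and 4.43 CPM, and in senescent PTEC the order was Fzd4 with 15.0, Fzd1 with 8.49 and Fzd7 with 7.56 CPM per kb. Fzd8 stood at 10.1, 14.2, 11.9 and 22.1 CPM and, with little spread, at 21.1, 21, 21.2 and 21.9 CPM. Its log2 fold change of 0.55 (SE 0.23) had an adjusted p of 0.0757, which became 0.0204 with the replicate number as a block and 0.00329 without non-senescent replicate 4. Fzd6 had a log2 fold change of 0.59 (adjusted p = 0.186), and Fzd9, with 36 and 31 reads, was not tested.

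**Figure D4:**
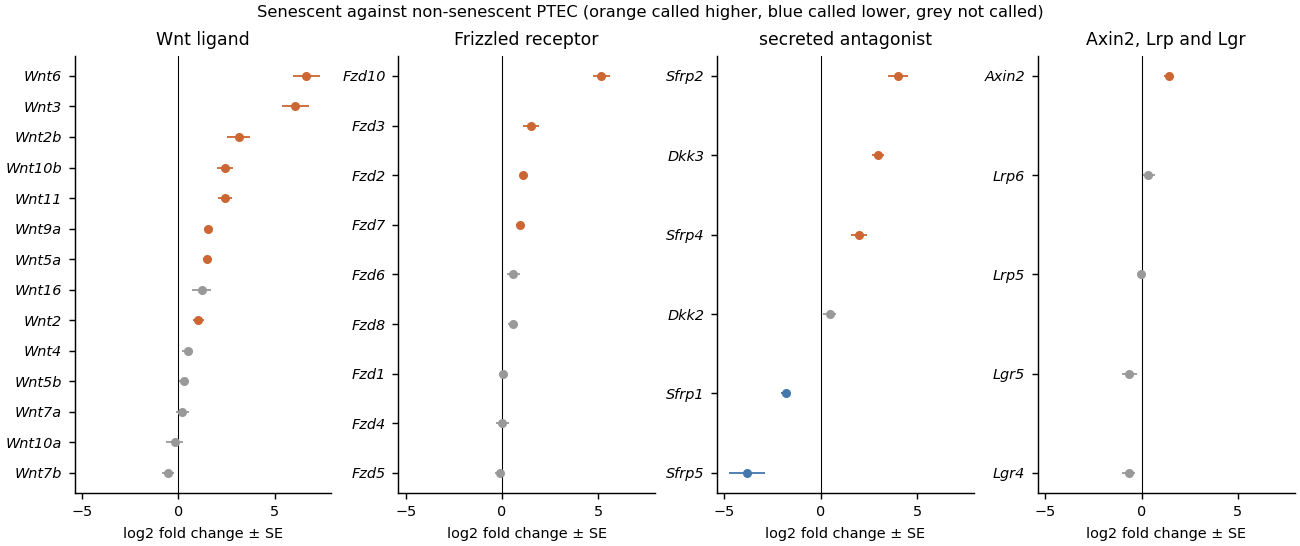
Log2 fold change of senescent against non-senescent PTEC with its SE for the 34 tested Wnt genes, in 4 panels by family, with orange for up-regulated, blue for down-regulated and grey for genes not called (edgeR, 4 cultures each). The 8 called ligands and 4 called receptors lie right of 0, and Sfrp1 and Sfrp5 lie left of 0; estimates for Wnt6 and Wnt3 rest on 1 read in non-senescent cultures and depend on the prior count.

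The antagonists were dominated by Dkk3, a divergent member of the dickkopf family that, unlike its relatives, is not known as a binder of Lrp5 and Lrp6. It stood at 88.0, 96.0, 42.2 and 73.0 CPM in non-senescent and at 751, 680, 340 and 549 CPM in senescent cultures. The groups were far apart, with means of 74.8 ± 23.7 and 580 ± 180 CPM (SD, n = 4). The log2 fold change was 2.95, with an SE of 0.32 and an adjusted p of 0.000102. Dkk3 made up 86.0% of the antagonist transcripts per kb in non-senescent and 99.0% in senescent PTEC, and the antagonist sum was 25.9 and 174 CPM per kb. Dkk2 stood at 1.6, 1.35, 0.902 and 1.66 CPM and at 0.933, 2.01, 2.24 and 2.42 CPM, overlapped and was not called (log2 fold change 0.46, adjusted p = 0.296). Dkk1, the classical inhibitor of Lrp5 and Lrp6, had 7 reads in non-senescent and no read in senescent cultures, at least 2.56-fold lower against a floor of 3 counts over the group. It was not tested, and Dkk4 had no read in any of the 17 libraries.

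The secreted Frizzled-related proteins, which bind Wnt ligands outside the cell, changed in opposite directions. Sfrp1 fell, from 5.50, 4.73, 4.0 and 6.46 CPM to 1.67, 1.84, 1.24 and 1.21 CPM, with no overlap (log2 fold change -1.79, SE 0.25, adjusted p = 0.000449). Sfrp5 fell from 0.707, 0.689, 2.63 and 11.0 CPM to 0.257, 0.402, 0.270 and 0.104 CPM. Non-senescent replicate 4 was far above the other cultures, and the log2 fold change of -3.83 (SE 0.95, adjusted p = 0.00971) became -2.34 without it. Sfrp2 rose, from 0, 0.0985, 0.118 and 0.111 CPM to 1.45, 1.11, 1.78 and 0.933 CPM, over 9 and 171 reads (log2 fold change 4.0, SE 0.53, adjusted p = 0.000329). Sfrp4 rose, from 0.246, 0.131, 0.0392 and 0.148 CPM to 0.515, 0.569, 0.486 and 0.760 CPM, over 17 and 73 reads (log2 fold change 1.97, SE 0.42, adjusted p = 0.00429). In each of the 4 genes, the senescent cultures lay wholly on their side of the non-senescent cultures. Wif1, another secreted binder of Wnt ligands, had 1 read in either group.

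Axin2 is a scaffold of the complex that degrades β-catenin and is itself a general target of β-catenin signalling. It stood at 2.98, 4.17, 2.0 and 2.81 CPM in non-senescent and at 7.82, 7.57, 8.02 and 8.36 CPM in senescent cultures. The senescent cultures were alike and all lay above the non-senescent ones, with means of 2.99 ± 0.895 and 7.94 ± 0.334 CPM (SD, n = 4). The log2 fold change was 1.41 with an SE of 0.23 (adjusted p = 0.00119), and it lay between 1.26 and 1.60 with each culture left out. Axin2 overlaps the antisense gene Gm11670 in its exons, and the strand setting of the counting is not given in the sources used here. The 250 bases before its RefSeq start at chr11:108920099-108920348 (GRCm38.p6, plus strand) are shown because Axin2 is the standard readout of the pathway, and none of the 4 forms searched occurs in this window on either strand.
Axin2: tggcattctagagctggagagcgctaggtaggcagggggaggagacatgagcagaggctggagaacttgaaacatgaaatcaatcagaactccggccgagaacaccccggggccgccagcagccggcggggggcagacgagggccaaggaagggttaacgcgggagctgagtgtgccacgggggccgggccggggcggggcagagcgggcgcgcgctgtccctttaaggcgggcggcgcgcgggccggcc

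The receptors of R-spondin and the co-receptors did not change with a call. Lgr4, which binds R-spondins and thereby keeps Frizzled receptors on the cell surface, stood at 187, 245, 89.5 and 198 CPM in non-senescent and at 123, 164, 68.3 and 96.4 CPM in senescent cultures. It was lower in the senescent culture of every replicate number, though the groups overlapped. Its log2 fold change of -0.67 (SE 0.33) had an adjusted p of 0.125, and with the replicate number as a block it was -0.65 with an adjusted p of 0.00289, which is a call. It was also called without non-senescent replicate 3, at -0.89 (adjusted p = 0.0227). Lrp6 stood at 133, 147, 50.1 and 177 CPM and at 178, 191, 99.5 and 174 CPM (log2 fold change 0.34, adjusted p = 0.457), and Lrp5 stood at 54.6, 63.0, 60.6 and 86.2 CPM and at 55.7, 52.4, 70.9 and 76.4 CPM (log2 fold change -0.05, adjusted p = 0.846). Lgr5, a marker of stem cells in the gut, was at or under 0.952 CPM in every culture (log2 fold change -0.64, adjusted p = 0.235).

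Further genes of the pathway were taken as 5 lists of 84 genes in all, of which 73 were tested in PTEC, with 23 up-regulated, 4 down-regulated and a median log2 fold change of 0.19, beside 20.1% up-regulated and 19.7% down-regulated over all genes. With each culture left out, 17 to 24 were up-regulated and 4 to 7 down-regulated. Of 18 tested modulators of ligands and receptors, 5 rose and 2 fell. The 5 were Wls, which carries Wnt ligands to the surface, Ptk7, Cthrc1, Frzb, another secreted Frizzled-related protein, and Dact3, with log2 fold changes of 0.90, 1.03, 1.06, 1.81 and 2.39. The 2 were Sostdc1, a secreted inhibitor of Wnt and BMP signals, and Ror2, a receptor of Wnt5a. Sostdc1 stood at 2.58, 2.56, 7.49 and 17.2 CPM in non-senescent and at 0.901, 0.770, 1.51 and 0.518 CPM in senescent cultures (log2 fold change -2.99, SE 0.66, adjusted p = 0.00521), and without non-senescent replicate 4, the highest culture, the log2 fold change was -2.17. Ror2 stood at 2.43, 2.10, 1.69 and 2.47 CPM and at 0.225, 0.201, 1.0 and 0.794 CPM (log2 fold change -1.95, SE 0.48, adjusted p = 0.00917). Neither gene overlapped between the groups.

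Of 12 tested target genes of β-catenin and TCF/LEF, 6 rose and 1 fell (5 to 7 and 1 to 2 with each culture left out). Over all genes, 20.1% rose and 19.7% fell. The median log2 fold change of the 12 was 1.13. One of them, Tnfrsf19, had 9 reads in non-senescent cultures and passed the filter through the senescent cultures. The 6 were Apcdd1, Snai2, Twist1, Nkd1, Sp5 and Tnfrsf19. Sp5, a transcription factor gene that responds to Wnt in many tissues, stood at 0.461, 0.525, 0.549 and 0.591 CPM in non-senescent and at 2.67, 2.11, 6.73 and 5.67 CPM in senescent cultures (log2 fold change 3.01, SE 0.41, adjusted p = 0.000421). Tnfrsf19 stood at 0.0922, 0.131, 0.0392 and 0.0369 CPM and at 1.13, 0.703, 0.702 and 0.484 CPM (log2 fold change 3.22, SE 0.45, adjusted p = 0.000475). The senescent cultures lay above the non-senescent ones in either gene. The target that fell was Cd44, an adhesion receptor with many other inputs, at 491, 462, 248 and 307 CPM and at 205, 219, 176 and 207 CPM (log2 fold change -0.90, SE 0.22, adjusted p = 0.00851). The summed level of the 16 target genes was 1807 to 2515 CPM in non-senescent and 1094 to 1944 CPM in senescent cultures, opposite in direction to the median. Ccnd1, the most abundant of them, had means of 1679 and 1318 CPM (log2 fold change -0.35, adjusted p = 0.248) and Myc of 104 and 76.7 CPM (log2 fold change -0.44, adjusted p = 0.188), and neither was called.

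In the other lists, 4 of 19 genes of the destruction complex and Dishevelled rose and 0 fell (3 to 4 rose with each culture left out). Of 11 planar polarity genes, 5 rose and 0 fell (3 to 5 and 0 to 1), and of 13 genes of the TCF/LEF complex, 3 rose and 1 fell (1 to 3 rose). For the destruction complex and the TCF/LEF complex these counts are near the 20.1% of all genes that rose. Pygo1, a cofactor that binds the β-catenin complex, stood at 0.0307, 0.0328, 0.0392 and 0 CPM in non-senescent and at 2.19, 1.78, 1.43 and 2.63 CPM in senescent cultures. With 3 reads against 250, the ratio was 75.9, with a 95% counting interval of 25.7 to 371 (adjusted p = 1.55e-05). It was near silent in every non-senescent culture and present in every senescent one.

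Marker genes of other cell types were counted in PTEC in the same way, beside 20.1% of all genes up-regulated and 19.7% down-regulated. Of 14 fibroblast and pericyte genes, 12 were tested, 8 rose and 1 fell (5 to 9 rose with each culture left out), and their summed level was 319 to 427 CPM in non-senescent and 1060 to 2278 CPM in senescent cultures. Acta2, the smooth muscle actin, had means of 60.5 and 695 CPM. Of the 12, 11 had a higher level in senescent cultures (median 2.0 on the log2 scale), and 11 of the 14 were at or above 1 CPM there. Among the members at low levels, Dpt, Lum and Dcn were at 0.0376 and 0, at 0.0185 and 0.0334, and at 0.0893 and 0.765 CPM, and Pdgfra was at 1.33 and 2.13 CPM. Of the tested proximal tubule genes, 5 of 8 fell and 0 rose. Loop of Henle genes fell in 5 of 7, distal tubule and collecting duct genes in 3 of 4 and inner medulla genes in 4 of 5, while leukocyte genes fell in 2 of 9, endothelial genes rose in 1 and fell in 1 of 9, podocyte genes rose in 3 of 5 and urothelial genes rose in 1 of 3. With each culture left out, 4 to 6 proximal tubule, 3 to 5 distal tubule and collecting duct, 1 to 3 leukocyte and 0 to 2 endothelial genes fell, and 2 to 3 podocyte genes rose. The part of these lists in the Wnt results was not tested.

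In kidneys, Wnt11 alone of these genes was called between 24 and 3 months of age, where it was lower in the old. Of the 43 genes, 32 passed the filter on low counts in kidneys, and 1 fell and 0 rose between 24 and 3 months, beside 2.34% of all 17067 genes called in either direction. Wnt11 (chromosome 7, 98835112 to 98855195, plus strand), whose promoter is printed above, stood at 2.15, 2.42 and 1.98 CPM at 3 months, at 0.382, 0.839 and 0.405 CPM at 12 months and at 0.290, 0.167 and 0.353 CPM at 24 months. The 3 young mice were alike and lay above all 6 older mice, and the 24-month-old mice lay below the 12-month-old ones. The means were 2.18 ± 0.22, 0.542 ± 0.257 and 0.270 ± 0.0946 CPM (SD, n = 3), over 288, 94 and 53 reads. The log2 fold change at 24 against 3 months was -3.00 with an SE of 0.39 (adjusted p = 0.00770), it lay between -3.25 and -2.75 with each mouse left out, and the call held in 6 of 6 such fits. Without 3-month replicates 1 and 3 together, which leaves 1 young mouse that is assumed to vary like the other groups, it was -3.16 with an adjusted p of 0.149. Wnt11 overlaps a pseudogene, Gm8398, in its exons.

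The other 31 tested genes were not called at 24 against 3 months, and their median log2 fold change with Wnt11 was 0.08. At an unadjusted edgeR p under 0.05 there were 10 of the 32 genes, beside 3106 of all 17067 genes. DESeq2 called 4, beside 3.45% of all genes. Wnt9b stood at 25.8, 3.97 and 14.2 CPM at 3 months and at 3.07, 0.881 and 1.72 CPM at 24 months, with no overlap (log2 fold change -2.95, SE 0.65, adjusted p = 0.0547; 0.0122 without 3-month replicate 2). Fzd8 stood at 8.24, 11.2 and 5.24 CPM and at 22.2, 14.3 and 22.3 CPM (log2 fold change 1.25, adjusted p = 0.0907; 0.0451 without 3-month replicate 2). The ligand inhibitor Sfrp5 stood at 0.735, 0.533 and 0.562 CPM and at 1.66, 1.0 and 2.10 CPM (log2 fold change 1.38, adjusted p = 0.0717). These 3 did not overlap between the ages and were called by DESeq2 but not by edgeR. Axin2 stood at 1.76, 0.840 and 1.28 CPM at 3 months, at 0.659, 1.07 and 0.444 CPM at 12 months and at 0.657, 0.608 and 0.445 CPM at 24 months, with a log2 fold change of -1.17 at 24 against 3 months (adjusted p = 0.167). Dkk3, which rose in senescent PTEC, stood at 10.4, 13.3 and 10.9 CPM at 3 months and at 18.8, 15.6 and 14.2 CPM at 24 months (log2 fold change 0.49, adjusted p = 0.163).

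Between 12 and 3 months, which share the 3-month mice with the comparison above, 5 of 32 genes were called, beside 2.58% of all genes in either direction. Wnt4, Wnt7b, Wnt9b and Wnt11 were lower at 12 months and Wnt2b was higher. Wnt4 stood at 21.6, 2.46 and 15.3 CPM at 3 months and at 1.18, 0.921 and 0.868 CPM at 12 months (log2 fold change -3.72, SE 0.81, adjusted p = 0.0498). This call held in DESeq2 but was lost in edgeR with only identifiers of the same version (adjusted p = 0.0547). It was also lost with upper quartile scaling (0.0529), a filter at 1 CPM (0.0551) and no filter on low counts (0.0956). Wnt7b stood at 31.3, 9.12 and 20.04 CPM and at 3.05, 4.24 and 2.84 CPM (log2 fold change -2.57, SE 0.47, adjusted p = 0.0336). Wnt9b stood at 1.44, 1.23 and 1.51 CPM at 12 months (log2 fold change -3.39, SE 0.67, adjusted p = 0.0381). In all 3 genes the ages did not overlap, 3-month replicates 1 and 3 were high, and 3-month replicate 2 was much nearer to the older mice. Wnt11 had a log2 fold change of -2.0 with an SE of 0.37 (adjusted p = 0.0336). Wnt2b stood at 0.0263, 0 and 0.0225 CPM at 3 months and at 0.295, 0.576 and 0.405 CPM at 12 months, from 2 and 73 reads, a ratio of 28.2 with a 95% counting interval of 7.52 to 237 (adjusted p = 0.0282).

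With each mouse left out, the calls of Wnt2b, Wnt4, Wnt7b and Wnt9b were each kept in 1 of 6 fits and that of Wnt11 in 2 of 6, and 0 to 6 of the genes were called, while calls over all genes went from 441 to between 52 and 716. The directions held in these fits, with log2 fold changes of -4.21 to -3.16 for Wnt4, -2.92 to -2.11 for Wnt7b, -3.84 to -2.70 for Wnt9b (the smallest without 3-month replicate 1) and -2.46 to -1.80 for Wnt11. For Wnt2b the log2 fold change was 4.32 to 5.05 in those of these fits that lost its call. Without 3-month replicates 1 and 3 the log2 fold changes were -1.32 for Wnt4, -1.44 for Wnt7b, -1.52 for Wnt9b and -2.16 for Wnt11, with adjusted p of 0.613, 0.413, 0.493 and 0.307. Genes of the urothelium and the inner medulla were high in the same young mice. The summed level of 5 urothelium genes was 125, 21.2 and 108 CPM at 3 months, 2.79, 4.49 and 1.37 CPM at 12 months and 30.9, 18 and 46.8 CPM at 24 months, and 5 of 5 fell between 12 and 3 months (0 to 5 with each mouse left out). That of 5 inner medulla genes was 531, 183 and 516 CPM, 133, 155 and 155 CPM, and 254, 129 and 158 CPM. That of 12 distal tubule and collecting duct genes was 1685, 1448 and 1463 CPM, 1072, 857 and 1205 CPM, and 1507, 1142 and 1498 CPM, lower in every mouse at 12 months than in every mouse at 3 months. Of these, 2 of 12 genes were called down (0 to 2 with each mouse left out), beside 2.58% of all genes called between 12 and 3 months. In other lists, between 24 and 3 months 2 of 12 leukocyte genes and 3 of 15 proximal tubule genes rose and 1 of 12 distal tubule and collecting duct genes fell, beside 2.34% of all genes called. With each mouse left out, 1 to 3, 0 to 3 and 0 to 2 genes of these lists were called in the same direction. Leukocyte genes were at a higher level in 12 of 12 and distal tubule and collecting duct genes in 1 of 12. Between 12 and 3 months endothelial genes had a higher level in 9 of 9, with 0 called. Fibroblast and pericyte genes had a higher level in 12 of 14 between 24 and 3 months, with 0 called (0 to 1 with each mouse left out). Their summed level was 249 to 299 CPM at 3 months and 306 to 370 CPM at 24 months. The part of all these lists in the Wnt results was not tested, and the urothelium and inner medulla lists were chosen after values were seen. Wnt11 was even over the 3 young mice, unlike Wnt4, Wnt7b and Wnt9b.

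**Figure D5:**
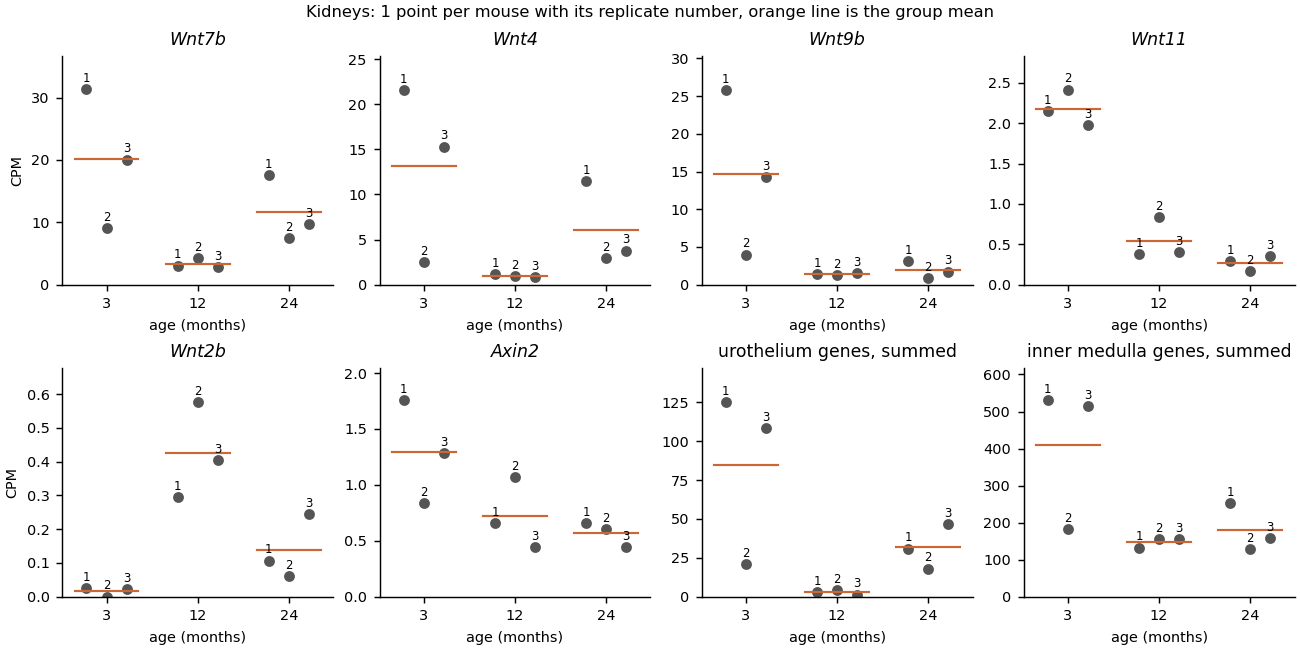
Levels in CPM of Wnt7b, Wnt4, Wnt9b, Wnt11, Wnt2b and Axin2 and summed levels of 5 urothelium and 5 inner medulla genes in kidneys at 3, 12 and 24 months, with 1 point per mouse marked by its replicate number and an orange line at the mean of 3 mice. Young mice 1 and 3 lie high for Wnt7b, Wnt4, Wnt9b and both marker lists, while the 3 young mice lie together for Wnt11, between 1.98 and 2.42 CPM.

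Between 24 and 12 months, 0 of 32 genes were called by edgeR, beside 1.33% of all genes. At an unadjusted edgeR p under 0.05 there were 6, beside 2602 of all 17067 genes. DESeq2 called 3, beside 2.59% of all genes. Those 3 were Wnt4, Wnt7b and Wnt10a, a ligand of teeth and hair. Wnt4 stood at 11.5, 2.90 and 3.78 CPM at 24 months (log2 fold change 2.61, adjusted p = 0.154), Wnt7b at 17.6, 7.45 and 9.72 CPM (log2 fold change 1.78, adjusted p = 0.111), and Wnt10a at 0.555, 0.214 and 0.637 CPM at 12 months and 1.5, 1.46 and 1.08 CPM at 24 months (log2 fold change 1.52, adjusted p = 0.152). In each, all 24-month-old mice lay above all 12-month-old mice, and 24-month replicate 1 was the highest. With the replicate number as a block and only these ages in the fit, Wnt4 (adjusted p = 0.00236), Wnt7b (adjusted p = 0.0243) and Wnt10a (adjusted p = 0.0203) were higher and Wnt2b (adjusted p = 0.0438) was lower at 24 months, 4 of the Wnt genes beside 13.2% of all genes called in that fit. With the block over all 3 ages, 0 of all 17067 genes were called. Urothelium genes were higher at 24 months in 5 of 5 (median log2 fold change 3.30, with 1 called and 0 with each mouse left out). Inner medulla genes were higher in 5 of 5, podocyte genes in 7 of 7 and endothelial genes in 1 of 9, with 0 called. The part of these lists in the Wnt results was not tested.

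By mean level per kb, the most abundant ligands were Wnt7b, Wnt9b and Wnt4 at 3 months, Wnt5b, Wnt5a and Wnt7b at 12 months, and Wnt5b, Wnt7b and Wnt4 at 24 months. At 3 and 24 months these ranks differed between mice. In 3-month replicate 2, Wnt9b and Wnt4, at 3.97 and 2.46 CPM, ranked below Wnt5b and Wnt5a per kb. At 24 months Wnt4 ranked above Wnt5a in replicate 1 alone, where it stood at 11.5 CPM against 2.90 and 3.78 CPM in the other mice. Wnt5b stood at 6.33, 4.75 and 8.68 CPM at 3 months, at 8.29, 8.47 and 8.08 CPM at 12 months and at 5.68, 7.58 and 5.59 CPM at 24 months, and its mean of 3.12 CPM per kb was 46.5% of the ligand sum at 12 months. Wnt5a stood at 14.2, 11.8 and 12.5 CPM, at 9.85, 9.72 and 9.63 CPM and at 11.6, 11.0 and 10.5 CPM. Neither gene was called with age. Wnt5b and Wnt7b each had a mean of 2.37 CPM per kb at 24 months. Per kb, Wnt7b lay above Wnt5b in replicate 1 and below it in replicates 2 and 3, and the difference was not tested. No read of Wnt3, Wnt1, Wnt8a or Dkk4 was found in any kidney.

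Receptors, co-receptors and the leading antagonists were not called with age by edgeR. DESeq2 called 9 of the Wnt genes between 12 and 3 months, beside 3.69% of all genes, and those beyond the 5 edgeR calls were Fzd1 (log2 fold change 0.64, adjusted p = 0.0447), Fzd8 (1.16, adjusted p = 0.0243) and Dkk3 (0.59, adjusted p = 0.0293), which were higher, and Fzd3 (-0.85, adjusted p = 0.00601), which was lower. Fzd4 stood at 81.5, 114 and 58.4 CPM at 3 months, at 76.4, 61.2 and 86.2 CPM at 12 months and at 85.9, 85.1 and 79.4 CPM at 24 months. Fzd1 stood at 40.2, 41.7 and 30.6 CPM, at 58.2, 62.2 and 57.1 CPM and at 66.6, 45.4 and 48.0 CPM. Fzd7 stood at 16.9, 15.6 and 12.9 CPM, at 18.6, 14.2 and 24.7 CPM and at 22.6, 17.5 and 17.2 CPM. Fzd4 and Fzd1 thus led the receptors in kidneys as in PTEC, with 12.6 and 8.93 CPM per kb at 3 months. Sfrp1, which fell in senescent PTEC, led the antagonists in kidneys, at 106, 117 and 86.1 CPM at 3 months, at 119, 69.4 and 109 CPM at 12 months and at 93.3, 82.5 and 102 CPM at 24 months. Dkk2 stood at 22.6, 28.4 and 23.9 CPM, at 32.9, 27.4 and 34.6 CPM and at 26.1, 22.2 and 27.7 CPM. Dkk3, the leading antagonist of PTEC, ranked behind Sfrp1 and Dkk2 in kidneys with 3.44, 5.23 and 4.82 CPM per kb, against 23.6, 22.7 and 21.2 CPM per kb for Sfrp1.

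Lgr4 stood at 103, 135 and 104 CPM at 3 months, at 126, 126 and 155 CPM at 12 months and at 120, 116 and 114 CPM at 24 months. Lrp6 stood at 74.6, 148 and 52.6 CPM, at 125, 64.6 and 137 CPM and at 142, 97.4 and 118 CPM, and Lrp5 at 29.6, 55.7 and 16.1 CPM, at 49.4, 20.3 and 53.9 CPM and at 53.1, 30.8 and 44.7 CPM. The ages overlapped for Lrp5 and Lrp6. For Lgr4 every 24-month-old mouse lay below every 12-month-old mouse, and both of these ages overlapped with 3 months. In all 3 genes 3-month replicate 2 was the highest of its age. Wif1, near absent from PTEC, stood at 0.164 to 1.25 CPM in kidneys.

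Of the 84 further pathway genes, 76 were tested in kidneys. Between 24 and 3 months 1 rose and 0 fell, between 12 and 3 months 0 rose and 2 fell, and between 24 and 12 months 1 rose and 1 fell, close to the shares of all genes called, which were 2.34%, 2.58% and 1.33%. Ccnd1, the cyclin of the G1 phase, stood at 106, 169 and 103 CPM at 3 months, at 138, 110 and 136 CPM at 12 months and at 329, 250 and 406 CPM at 24 months. All 24-month-old mice lay above all younger mice, and the log2 fold change was 1.38 against 3 months (adjusted p = 0.0255, called in 2 of 6 fits with a mouse left out, at 1.19 to 1.66) and 1.36 against 12 months (adjusted p = 0.0411, called in 0 of 6, with a log2 fold change between 1.18 and 1.53). Over all genes, calls between 24 and 12 months went from 227 to between 1 and 63 in such fits. Sostdc1 stood at 118, 108 and 140 CPM at 3 months and at 54.3, 64.2 and 55.0 CPM at 12 months (log2 fold change -1.07, adjusted p = 0.0208, called in 2 of 6, at -1.15 to -0.96). Tnfrsf19 stood at 3.15, 0.369 and 2.27 CPM and at 0.156, 0.132 and 0.193 CPM (log2 fold change -3.57, adjusted p = 0.0366, called in 1 of 6, at -4.06 to -3.02), with 3-month replicates 1 and 3 high as for Wnt4. Notum, an enzyme that inactivates Wnt ligands, stood at 26.3, 21.4 and 27.1 CPM at 12 months and at 9.80, 15.0 and 11.5 CPM at 24 months (log2 fold change -1.04, adjusted p = 0.0452, called in 0 of 6, at -1.23 to -0.91). With the replicate number as a block, each of these calls was lost. The adjusted p was then 0.107 for Ccnd1 against 3 months and 0.151 against 12 months, 0.0658 for Sostdc1, 0.0851 for Tnfrsf19 and 0.163 for Notum. Over all 17067 genes the block called 126 between 24 and 3 months, 118 between 12 and 3 months and 0 between 24 and 12 months.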

How the data were processed

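The authors made stranded libraries and deposited raw counts of reads per gene for 8 PTEC cultures and 9 kidneys, without normalization; the labels name GRCm38, and the study names the nf-core/rnaseq pipeline with GENCODE release M18, while the tool that counted reads within it and its setting for strand are not given in the sources used here. Gene sets of 53715 identifiers for PTEC, 54146 for kidneys at 3 months and 55401 for those at 12 and 24 months were matched without their version (2351 of the 53772 shared by kidneys, 2 Wnt genes among them, differed in version). Symbols, positions and exon lengths were taken from GENCODE release M21, a later release than the one named. For 7 of the 43 genes (Axin2, Fzd5, Fzd6, Sfrp2, Wnt5a, Wnt7b and Wnt11), an exon overlaps another gene, so that reads may be shared.

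PTEC and kidneys were fitted apart in R 4.3.3 with edgeR 4.0.16 and limma 3.58.1: TMM scaling, filterByExpr and the quasi-likelihood test, with p adjusted by Benjamini-Hochberg over all tested genes, with 1 estimate of the spread over the 3 ages. All adjusted p-values are from edgeR unless DESeq2 (1.42.0) is named. Tables and figures were made in Python 3.11.15 with numpy 2.4.6, pandas 2.3.3, scipy 1.17.1 and matplotlib 3.10.9. A call needed a log2 fold change beyond 0.5 in size and an adjusted p under 0.05. Depth was 26963442 to 32838856 reads in non-senescent PTEC, 29041073 to 35409144 in senescent PTEC, and 37311247 to 49471409, 54097073 to 59718029 and 62761670 to 66894790 in kidneys at 3, 12 and 24 months, and intervals cover counting error only.

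The genes and lists were chosen with earlier results of these data known. Values in every library are given for the Wnt genes called in a comparison and for the 3 with the highest mean per kb of exon in each family, and of the pathway lists for the 3 largest and 3 smallest called log2 fold changes; genes named beyond these were chosen after their values were seen. Departures of PTEC cultures of the same number from their group means correlated with r from 0.186 to 0.614 over 4 pairs. Those of mice at 12 and 24 months did so with r from 0.172 to 0.557 over 3 pairs, although the mice differ. With 3-month-old mice r was below 0. Pairs of unlike number reached r of 0.265 in PTEC and 0.270 between 12 and 24 months, above the lowest values for like numbers. Whether the numbers pair the samples is thus not shown. The main fits took no pairing, and the replicate block was an alternative. Replicates differed beyond counting error in each of 21 pairs (chi-square per gene 17.0 to 341). On simulated data made from the PTEC counts (15434 genes), 42 of 91 genes changed by a log2 of 1 and 104 of 109 changed by a log2 of 2 were recovered, with 9 false among 155 calls; for 24 against 3 months (16548 genes) these were 26 of 91 and 100 of 109, with 11 false among 137. Alternatives were other scalings, filters, thresholds, samples in the fit, DESeq2, a replicate block and each library left out. Promoter sequences are from RefSeq (GRCm38.p6).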

Additional observations from a re-analysis of the deposited data

Results flagged for a closer look

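With 4 cultures a group, 6 of 68 checks of a Wnt gene's level in PTEC found a culture that stood apart from the other 3, where chance gives about 1 in 20. In non-senescent PTEC, Wnt7b was 296 CPM in replicate 3 against 224 to 227 CPM in the others, and Fzd5 was 18.7 CPM in replicate 3 against 33.5 to 36.4 CPM. Sfrp2 had no read (0 CPM) in non-senescent replicate 1 against 0.0985 to 0.118 CPM. Wnt3, at 0.0392 CPM in replicate 3, and Wnt6, at 0.0369 CPM in replicate 4, each rest on 1 read, with 0 in the other cultures. In senescent PTEC, Fzd8 was 21.9 CPM in replicate 4 against 21 to 21.2 CPM, a narrow range. Groups of 3 mice were not checked.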

How the results depend on the processing

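Of 67 recomputed counts of called Wnt genes in all settings, 52 stayed within 1.5 times the value reported and 15 moved, all in kidneys; the cause was not tested, and calls over all genes moved in the same fits. For 12 against 3 months, where 5 genes were called, there were 9 calls with DESeq2, 3 with a filter at 1 CPM, 0 without 3-month replicates 1 and 3, 0 with only these ages in the fit, 1 with a replicate block, and from 0 to 6 with each mouse left out (0 without replicate 1 or 3 of either age, 1 without 12-month replicate 2 and 6 without 3-month replicate 2). Over all genes the 441 calls became 340 with the filter, 29 without 3-month replicates 1 and 3, 64 with only these ages and 118 with the block. For 24 against 3 months, where 1 was called, there were 4 with DESeq2, 0 without 3-month replicates 1 and 3, and from 1 to 4 with each mouse left out (4 without 3-month replicate 2). Over all genes the 399 calls became 1035, 25 and between 74 and 794, the last without 3-month replicate 2. For 24 against 12 months, where 0 were called, there were 3 with DESeq2 and 4 with a replicate block and only these ages in the fit, and 0 to 0 with each mouse left out. In PTEC the 18 calls stayed between 17 and 20 with each culture left out.

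With the replicate number as a block, 21 genes were called in PTEC, beside 44.6% of all genes, where Wnt7b, Fzd8 and Lgr4 gained a call; 1 was called for 24 against 3 months, 1 for 12 against 3 months and 0 for 24 against 12 months, where 126, 118 and 0 of all 17067 genes were called. Of the recomputed values for single genes, each gene counted once per comparison and setting, and the counts of genes at 1 CPM, no called value reversed, 1827 stayed on their side of the threshold (mostly genes not called in either fit), 24 gained a call and 44 lost one. The fits without 3-month replicates 1 and 3, and the block with only 2 ages, were chosen after seeing the data. Low counts limit Wnt3, Wnt3a, Wnt6, Wnt2b in young kidneys, Dkk1 and Pygo1, and 9 Wnt genes in PTEC and 11 in kidneys were too low to be tested.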
